A study of Mus musculus with 6 samples.

Results

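The wild-type (WT) mouse ovary at 9 days post partum (dpp) was described from 3 RNA sequencing libraries of whole ovary, out of the 6 in the study. The other 3 came from ovaries in which Srsf1, a splicing factor gene, had been knocked out in granulosa cells, and no value below comes from them. A gene was included when its mean over the 3 WT libraries was at least 1 FPKM (fragments counted for a gene, divided by its length in kb and by a size factor of the library), which 14648 of the 47205 listed genes reached. The labels give the genotype (WT), the tissue and the age. The strain, the alleles the mice carried, the number of ovaries behind a library and whether the replicates came from separate animals are not stated there, so that each SD (n = 3) measures the spread between these libraries, which may be technical. There is 1 group and no comparison between conditions, and therefore no test. Reads in the listed genes, recovered from FPKM and gene length, came to 16.8 M, 18.2 M and 18.5 M in WT 1, WT 2 and WT 3. In a gene of 1 kb, 1 read was worth 0.0541 to 0.0581 FPKM.

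At this age the mouse ovary holds a large reserve of primordial follicles and a first wave of growing ones. Each follicle is an oocyte in a shell of granulosa cells, which feed it through gap junctions, and growing follicles lie inside a basement membrane with theca cells outside it. The oocyte builds its egg coat, the zona pellucida, and stores RNA and protein for the early embryo. Between follicles lies a collagen-rich stroma with blood and lymphatic vessels, and a surface epithelium covers the organ. Whole-ovary RNA sums over all of these cells: a low value of a marker cannot tell fewer cells of that type apart from less RNA per cell.

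The RNA of the 9 dpp ovary was led by the machinery of protein synthesis and respiration, and a single oocyte gene stood among the 10 most abundant. Of the 25 genes with the highest mean FPKM, 7 were encoded by the mitochondrial genome and 12 were ribosomal protein genes. The most abundant was COX1, a mitochondrially encoded subunit of cytochrome c oxidase, at 5013, 5533 and 6231 FPKM in WT 1, WT 2 and WT 3. Eef1a1, the elongation factor that brings aminoacyl-tRNA to the ribosome, followed with 4133, 4250.0 and 4608 FPKM. Padi6, a component of the cytoplasmic lattices of the oocyte, held the 9th place of all 14648 genes, with 947, 1021 and 1027 FPKM. It stood between Eef2, the translocation factor of the ribosome (1032, 1026 and 962 FPKM), and the ribosomal protein gene Rps3a1 (929, 856 and 1164 FPKM). The 3 values of Padi6 lay within 1.09-fold of each other, and its mean was 998 ± 44.9 (SD, n = 3, as for every mean ± SD below). Padi6 lies on chromosome 4, GRCm39, 140454666 to 140469954, minus strand.

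The other members of the leading 25 were Tpt1 (1462 ± 253), a translationally controlled protein, the chaperone gene Hsp90ab1 (894 ± 22.5), and Ldhb (815 ± 91.4), which encodes a lactate dehydrogenase subunit, all in FPKM. The ribosomal protein genes of this group ran from Rplp1 at 1435, 947 and 1556 FPKM in WT 1, WT 2 and WT 3 to Rps14 at 758, 519 and 1008 FPKM. Between them stood Rps3a1, Rpl23a, Rpl13, Rps26, Rpl7, Rpl10, Rplp0 and Rpl4, among others. WT 2 was the lowest library for each of the 12, as for 33.2% of all 14648 genes. Among the 12 places after the leading 25 stood genes of the stroma and the oocyte: Sparc, a matrix glycoprotein gene, at place 26, Col1a2 at place 27, Zp2 at place 32, Zp3 at place 34, Col3a1 at place 36 and Col1a1 at place 37. These were chosen after their values were seen. Gas6, a secreted ligand of TAM receptors, took place 44 with 597, 509 and 583 FPKM.

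**Figure D1:**
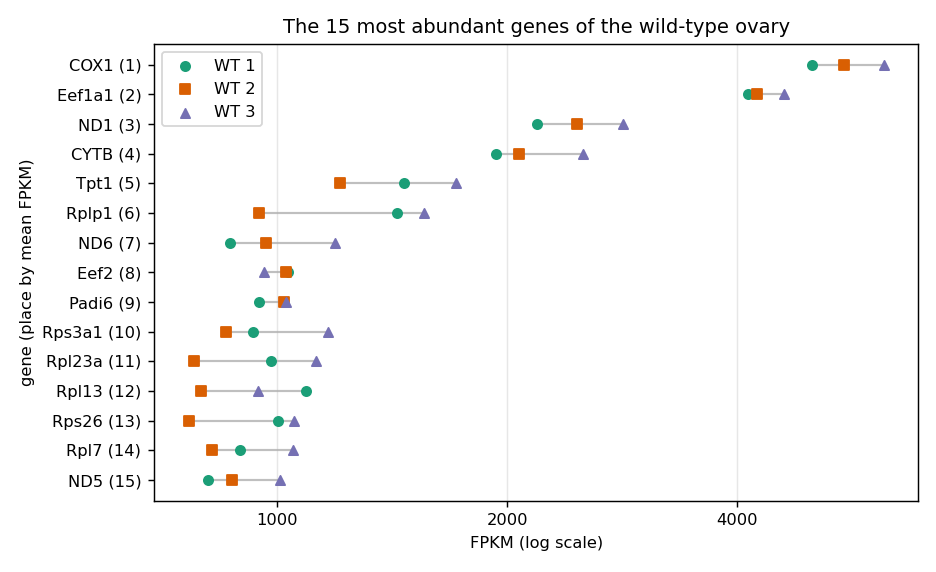
FPKM (x axis, log scale) of the 15 genes with the highest mean over 3 WT libraries (y axis, with the gene's place), 1 symbol per library and a grey line over the range. COX1 and Eef1a1 exceed every other gene in each library, and Padi6 is the only oocyte list gene shown.

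The mitochondrially encoded genes did not share 1 level. In order along the mitochondrial genome, ND1 had a mean of 2499 ± 324 FPKM, ND2 785 ± 94.5 and COX1 5592 ± 611. The next 6 were far lower: COX2 at 73.3 ± 10.6, ATP8 at 0.546 ± 0.0203, ATP6 at 41.8 ± 7.16, COX3 at 36.8 ± 5.97, ND3 at 1.69 ± 1.23 and ND4L at 14.8 ± 0.973 FPKM. From ND4 on the level was high again, with ND4 at 856 ± 119.6, ND5 at 897 ± 101.0, ND6 at 1008 ± 165 and CYTB at 2173 ± 304. The low stretch spans positions 7013 to 10173 of the mitochondrial genome in the deposited table, and all of its 6 genes were low in all 3 libraries. Mitochondrial sequence also lies in nuclear copies, and each of these values is uncertain to the extent that reads were shared with a copy. ND6 lies on the opposite strand from the other 12 and overlaps the end of ND5, and without a stated strand setting their reads cannot be told apart where they overlap. All 13 together took 4.34% of the summed FPKM (3.88%, 4.41% and 4.72% in WT 1, WT 2 and WT 3). Mitochondrially encoded genes of every biotype took 1.67%, 1.80% and 2.08% of the reads, and WT 3 was the highest on both measures.

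Ribosomal protein genes took a larger share. The 85 genes with ribosomal protein symbols held 10.1% of the summed FPKM, 82 of them reached 1 FPKM, and 45 stood among the 100 most abundant genes. Their median was 331 FPKM, against 8.66 FPKM for all 14648 genes. Their share was 10.7%, 8.57% and 11.0% in WT 1, WT 2 and WT 3, and their median FPKM 342, 259.6 and 400.0, so that WT 2 was lowest on both. The 3 genes under 1 FPKM were Rpl28, Rpl32l and Rpl3l. Rpl28, a constituent of the large ribosomal subunit, is listed at 0.702, 0.776 and 0.546 FPKM, on 6, 7 and 5 reads.

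A small number of genes thus made up much of the signal. The 10 most abundant genes took 6.64% of the summed FPKM, the 100 most abundant 21.6% (21.6%, 20.3% and 22.8% in WT 1, WT 2 and WT 3) and the 1000 most abundant 49.5%. It took 1033 genes to reach 50% and 7261 genes to reach 90%. The 14648 genes together held 99.0%. Among them 7979 lay from 1 to under 10 FPKM, 6261 from 10 to under 100, 400 from 100 to under 1000, and 8 at 1000 or more. The quartiles were 3.44, 8.66 and 19.8 FPKM. Outside the set, 15528 genes were above 0 but under 1 FPKM and 17029 were at 0 in all 3 libraries. Of the 14648, 13629 were at or above 1 FPKM in each library and 1019 were under it in at least 1. The 3 genes nearest to the threshold on the inside were Mgarp (1.75, 0.423 and 0.833 FPKM in WT 1, WT 2 and WT 3), A730049H05Rik and a gene without a symbol. On the outside they were Btnl9 (1.202, 1.03 and 0.769 FPKM), another gene without a symbol, and Gm42109.

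Lists of marker genes for different cell types differed in their median level. The stromal list had the highest median, 97.9 FPKM over its 20 genes (76.7, 95.1 and 132 in WT 1, WT 2 and WT 3). The oocyte list followed at 38.7 FPKM over 48 genes (43.2, 36.9 and 39.3), then the granulosa list at 35.8 FPKM over 28 genes (36.7, 37.0 and 34.3) and the endothelial list at 14.96 FPKM over 16 genes (14.4, 13.9 and 16.6). The stromal list lay above the others in every library. The oocyte and granulosa lists overlapped in their library medians, so that their order is not resolved by these 3 libraries. Both lay above the endothelial list in every library. The lists hold different genes of different strength, and a ratio of their medians is not a ratio of cell numbers.

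Below them came pericytes and smooth muscle (median 10.3 FPKM, 12 genes), surface epithelium (9.00, 11 genes), neural and glial genes (7.76, 6 genes), lymphatic endothelium (4.53, 5 genes), macrophages and other leukocytes (4.30, 14 genes), theca (3.88, 9 genes) and erythroid cells (2.39, 7 genes). From endothelial to neural genes, each list overlapped the next in its library medians, as did lymphatic, macrophage and theca genes in turn. The surface epithelium medians were 20.3, 10.6 and 7.40 FPKM in WT 1, WT 2 and WT 3. In WT 1 that list thus lay above the endothelial list (14.4). Ciliated and oviduct genes reached 1.28 FPKM over 8 genes, lymphocyte genes 0.187 over 6, and adipocyte genes 0.0215 over 5. In all, 169 of the 195 genes of these 14 lists, which share no gene, were at or above 1 FPKM. Under 1 FPKM were the ciliated and oviduct genes Foxj1, Ovgp1, Tekt1 and Dnah5, the erythroid membrane gene Slc4a1, and the glial and neural genes Sox10 and Elavl4. Th (17.8 ± 3.77) and Tubb3 (15.1 ± 2.23), also of the neural and glial list, were far above them, and the list's median lies between these sets. All 6 lymphocyte genes were also under 1 FPKM, with Cd79a, a component of the B cell receptor, the highest at 0.543 ± 0.247. Plin1, a lipid droplet gene, was the adipocyte gene above 1 FPKM (4.05, 1.28 and 1.42 FPKM), while Adipoq was at 0.0471, 0 and 0 FPKM and Lep was listed at 0 in all 3 libraries.

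**Figure D2:**
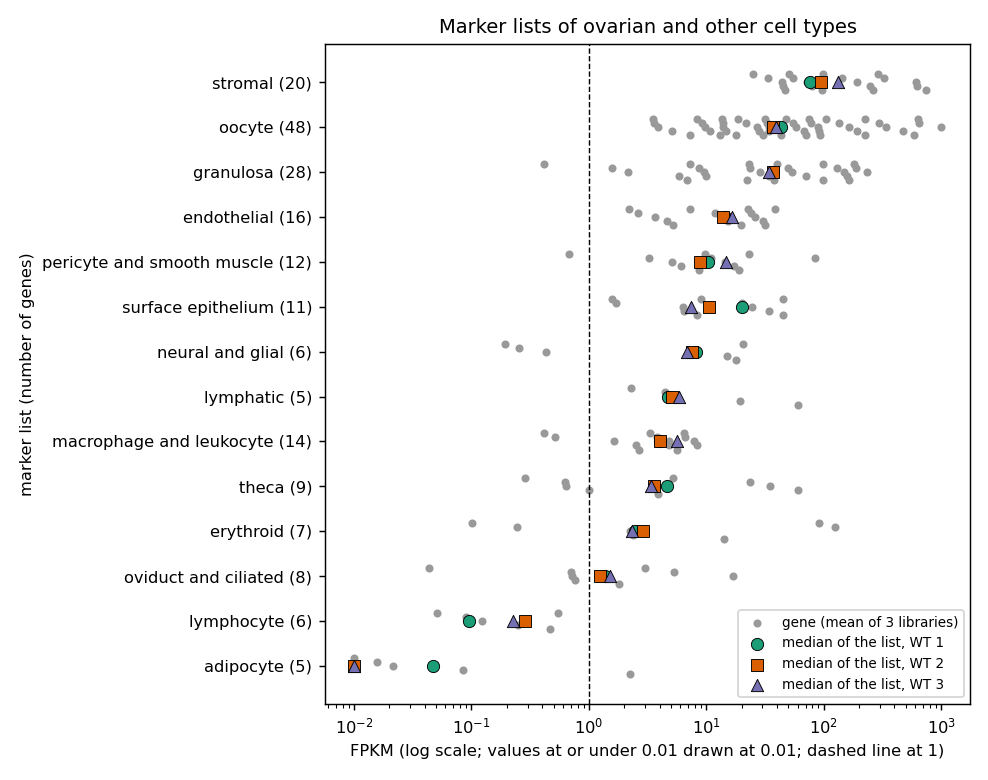
FPKM (x axis, log scale) of the genes in 14 marker lists (y axis, with the number of genes), grey points for a gene's mean over 3 WT libraries and coloured symbols for the median of the list in each library. Stromal medians run from 76.7 to 132 FPKM, oocyte medians from 36.9 to 43.2 and granulosa medians from 34.3 to 37.0, and lymphocyte and adipocyte medians lie under 1.

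Sequence upstream of the start site was looked at for the leading marker genes, since CG dinucleotides are known to be dense at the promoters of many broadly expressed genes. The 250 bases before the first listed start of a gene, taken from RefSeq on build GRCm38.p6, are printed 5′ to 3′ on the gene's strand with every CG in capitals. The first pair are oocyte genes, Padi6 (chr4:140742644-140742893, minus strand) and Zp3 (chr5:135979855-135980104, plus strand).
Padi6: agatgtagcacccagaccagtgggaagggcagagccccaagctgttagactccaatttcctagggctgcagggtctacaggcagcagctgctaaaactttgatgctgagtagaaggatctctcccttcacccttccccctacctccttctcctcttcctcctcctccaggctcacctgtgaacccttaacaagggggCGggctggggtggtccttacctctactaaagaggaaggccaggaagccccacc
Zp3: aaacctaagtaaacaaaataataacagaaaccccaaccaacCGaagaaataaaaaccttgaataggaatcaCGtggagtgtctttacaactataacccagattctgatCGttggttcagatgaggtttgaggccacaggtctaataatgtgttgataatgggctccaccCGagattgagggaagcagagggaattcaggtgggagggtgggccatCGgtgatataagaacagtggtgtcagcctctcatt
The next pair are granulosa genes, Serpine2 (chr1:79858666-79858915, minus strand) and Foxl2 (chr9:98955357-98955606, plus strand).
Serpine2: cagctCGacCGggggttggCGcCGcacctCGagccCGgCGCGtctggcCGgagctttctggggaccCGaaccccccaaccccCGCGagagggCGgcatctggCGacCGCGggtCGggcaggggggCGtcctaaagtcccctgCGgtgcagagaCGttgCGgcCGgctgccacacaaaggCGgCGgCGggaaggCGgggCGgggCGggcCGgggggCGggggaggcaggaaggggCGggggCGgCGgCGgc
Foxl2: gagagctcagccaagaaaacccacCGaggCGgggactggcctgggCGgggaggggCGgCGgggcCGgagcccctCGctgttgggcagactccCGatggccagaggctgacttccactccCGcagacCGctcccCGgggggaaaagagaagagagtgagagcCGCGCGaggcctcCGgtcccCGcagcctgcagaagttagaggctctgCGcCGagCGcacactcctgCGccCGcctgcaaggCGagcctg
The third pair are stromal genes, Col1a2 (chr6:4505368-4505617, plus strand) and Col3a1 (chr1:45311288-45311537, plus strand).
Col1a2: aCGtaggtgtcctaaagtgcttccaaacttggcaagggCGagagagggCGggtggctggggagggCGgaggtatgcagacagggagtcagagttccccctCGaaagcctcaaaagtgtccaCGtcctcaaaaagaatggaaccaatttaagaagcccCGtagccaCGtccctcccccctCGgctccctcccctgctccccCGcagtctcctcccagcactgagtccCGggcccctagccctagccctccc
Col3a1: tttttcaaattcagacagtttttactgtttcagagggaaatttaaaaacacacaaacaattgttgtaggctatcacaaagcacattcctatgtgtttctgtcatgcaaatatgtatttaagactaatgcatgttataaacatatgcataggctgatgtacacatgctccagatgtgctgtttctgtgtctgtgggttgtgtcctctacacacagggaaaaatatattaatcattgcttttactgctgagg
The last pair are endothelial genes, Eng (chr2:32646345-32646594, plus strand) and Cldn5 (chr16:18776597-18776846, plus strand).
Eng: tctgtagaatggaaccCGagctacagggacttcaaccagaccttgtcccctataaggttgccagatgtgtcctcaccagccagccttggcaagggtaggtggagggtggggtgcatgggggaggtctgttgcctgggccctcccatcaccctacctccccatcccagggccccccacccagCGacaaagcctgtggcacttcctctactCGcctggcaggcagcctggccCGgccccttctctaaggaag
Cldn5: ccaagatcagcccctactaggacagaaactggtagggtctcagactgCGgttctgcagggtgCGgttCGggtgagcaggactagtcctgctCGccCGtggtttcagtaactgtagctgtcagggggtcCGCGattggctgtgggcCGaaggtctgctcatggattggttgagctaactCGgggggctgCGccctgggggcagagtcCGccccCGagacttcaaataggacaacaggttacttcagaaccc
These windows held 1 CG in Padi6, 5 in Zp3, 34 in Serpine2, 22 in Foxl2, 11 in Col1a2, 0 in Col3a1, 4 in Eng and 12 in Cldn5. A window could be matched for 26563 of the 47205 listed genes and for 10582 of the 14648, and the choice of these genes was made with their levels known. Gene positions elsewhere are on GRCm39 and are not to be set beside these windows.

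Across protein-coding genes the number of CG in the window went with the level. Its median was 2 for genes under 0.1 FPKM, 5 from 0.1 to under 1 FPKM, 14 from 1 to under 10 FPKM and 17 both from 10 to under 100 and at 100 FPKM or more. Over all 27025 genes in the sequence table the median was 6. The marker lists lay at different places on this scale: 4 for oocyte genes (36 of 48 matched), 11 for granulosa genes (21 of 28), 4 for stromal genes (15 of 20), 4 for endothelial genes (9 of 16) and 16.5 for ribosomal protein genes (64 of 85). Oocyte genes with 10 or more included Ddx4 with 31, Ybx2 with 35 and Lsm14b with 34, while Khdc3 had 0. The letters CANNTG, the core of the E-box that basic helix-loop-helix factors such as Figla are known to bind, read the same on both strands. They were present in the window of 30 of 36 oocyte genes (83.3%), 66.04% of all 27025 windows and 56.9% of the windows of coding genes at or above 1 FPKM. Other sets also had high shares: endothelial genes held them in 7 of 9 windows (77.8%), pancreatic enzyme genes in 12 of 13 (92.3%) and coding genes under 0.1 FPKM in 71.9%. The share was 57.1% for granulosa genes and 53.3% for stromal genes. Among the oocyte genes printed above, Padi6 held 2 matches and Zp3 held 3. A match is a description of the letters and no sign of binding.

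Every one of the 48 oocyte genes was at or above 1 FPKM, 40 were at or above 10 and 13 at or above 100, and together they took 1.92% of the summed FPKM. After Padi6 the highest were the zona pellucida genes Zp2 and Zp3, while Zp1, the third gene of this kind on the list, held place 146. Zp2 (chromosome 7, GRCm39, 119725985 to 119744514, minus strand) had 628, 631 and 664 FPKM in WT 1, WT 2 and WT 3, Zp3 had 650.3, 561 and 678, and Zp1 had 229.6, 216 and 233. The 3 encode the structural glycoproteins of the egg coat, and their libraries lay within 1.06-fold, 1.21-fold and 1.08-fold of each other. Uchl1, a ubiquitin hydrolase abundant in oocytes and neurons, had 597, 531 and 632 FPKM. The median CV (SD over mean) of the 48 genes was 0.101, beside 0.108 for all 14648. None of the 48 differed over 2-fold between libraries, beside 8.47% of all 14648 genes and 3.58% of the coding ones. In the level classes at or above 10 FPKM, where 40 of the 48 lay, that share was 1.55% to 2.70%. Few of 48 genes would be over 2-fold at such a share.

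Genes for the subcortical maternal complex and related proteins, which gather under the oocyte membrane and are needed for the first cleavages, were the highest of the oocyte roles, with a median of 165 FPKM over 8 genes. Besides Padi6 they were led by Nlrp14 (496, 444 and 479.5 FPKM in WT 1, WT 2 and WT 3), Nlrp5 (290.4, 382 and 343) and Ooep (262, 202 and 212). Tle6 followed at 106 ± 11.99, Nlrp4f at 93.1 ± 3.79, Khdc3 at 47.2 ± 2.92 and Nlrp2 at 17.8 ± 0.521. All 8 were at or above 10 FPKM. Their median CV was 0.0590.

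Secreted oocyte products had a median of 43.3 FPKM over 9 genes. Gdf9, a growth factor of the TGF-beta family that acts on granulosa cells, had 312, 292 and 287 FPKM in WT 1, WT 2 and WT 3, and its X-linked relative Bmp15 had 34.9, 36.7 and 30.9. Oosp1 had a mean of 43.3 ± 6.86, Oosp2 13.6 ± 0.698 and Oosp3 9.25 ± 1.90. Fgf8, an oocyte signal to cumulus cells, was the lowest at 3.61 ± 0.0855. Gdf9 exceeded Bmp15 in every library, with no overlap.

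Oocyte transcription factors were lower, with a median of 21.6 FPKM over 9 genes and none at 100. Nobox, a homeobox factor needed for early follicle growth, had 78.7, 71.6 and 60.5 FPKM in WT 1, WT 2 and WT 3, and Sohlh1, a helix-loop-helix factor of early oocytes, had 41.0, 30.5 and 24.1. Figla, which is needed to form primordial follicles, had 21.8, 16.3 and 17.3, and Lhx8, a LIM homeobox factor, had 21.2, 23.1 and 20.4. Obox5 and Obox1 lay at 28.3 ± 3.16 and 26.9 ± 4.003. The lowest were Tbpl2 at 8.34 ± 0.525, Sohlh2 at 5.08 ± 0.519 and Taf4b at 3.49 ± 0.319. WT 3 was the lowest library for 7 of these 9 genes, where 33.6% of all 14648 genes were lowest in WT 3.

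RNA storage and translation genes of the oocyte had a median of 13.9 FPKM over 11 genes. Zar1, which helps store maternal mRNA, led with 173, 131 and 188 FPKM in WT 1, WT 2 and WT 3. Lsm14b (88.7 ± 8.75), Ybx2 (78.2 ± 10.6) and Eif4e1b (75.1 ± 8.13) followed. The germ cell RNA-binding genes Dazl and Ddx4 lay at 14.6 ± 0.971 and 13.9 ± 0.391. Among oocyte genes outside these roles, Dppa3 had 193 ± 23.7 FPKM, the linker histone gene H1f8 135 ± 14.7 and the meiotic kinase gene Mos 32.9 ± 2.49.

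Genes of meiotic prophase, which oocytes begin before birth and pass through up to their arrest, were low. Their median was 1.68 FPKM, with 9 of 12 at or above 1. Mael, a piRNA pathway gene, led with 33.0 ± 6.22, followed by the cohesin gene Smc1b with 16.8 ± 3.88 and Sycp3, a synaptonemal complex gene, with 16.0 ± 0.358. Dmc1, the meiotic recombinase, had 1.44 ± 0.174. The 3 genes under 1 FPKM were Hormad1 (0.151, 0.0286 and 0.197 FPKM in WT 1, WT 2 and WT 3), Spo11, which makes the double-strand breaks of meiosis (0.0702, 0.183 and 0.0164), and Stra8, which starts meiosis and was listed at 0 in all 3 libraries.

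Of the 28 granulosa genes, 27 were at or above 1 FPKM, 19 at or above 10 and 7 at or above 100, and the list took 0.572% of the summed FPKM. Serpine2, a secreted protease inhibitor, was the highest with 196, 255 and 251 FPKM in WT 1, WT 2 and WT 3. Foxl2, the forkhead factor that maintains granulosa identity, had 138, 224 and 204 FPKM, with WT 1 lowest. It lies on chromosome 9, GRCm39, 98837660 to 98840179, plus strand. Slc18a2, a monoamine transporter, had 151, 214 and 182. Amh, the hormone that growing follicles release to restrain follicle recruitment, had 220.4, 146 and 129 FPKM and ran the other way, with WT 1 highest. Inha, the inhibin alpha subunit, had 181, 163 and 131, and Kctd14 had 169.6, 132 and 149. Of these 6 genes Kctd14 had the narrowest range, 1.29-fold, and Amh the widest, 1.70-fold.

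The inhibin and activin subunits were unequal. Inhbb, the beta B subunit, had 67.4, 49.3 and 45.4 FPKM, while Inhba, the beta A subunit that later follicles make, was the 1 granulosa gene under 1 FPKM with 0.463, 0.378 and 0.406. Fst, the activin antagonist, lay at 28.9 ± 5.39. Kitl, the ligand with which granulosa cells support the oocyte, had a mean of 70.1 ± 4.02, and its receptor Kit on the oocyte 58.0 ± 8.29. Gja1, the gap junction protein between granulosa cells, had 129 ± 17.0, and Gja4, the gap junction protein at the oocyte, 55.8 ± 6.53.

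Receptors and signals of the follicle were for the most part at moderate levels, and all 19 genes of the follicle signal list were at or above 1 FPKM, with a median of 33.5. Amhr2, the AMH receptor, was the highest of 11 hormone receptor genes with 98.3 ± 13.3 FPKM. The estrogen receptors had 34.3 ± 6.11 (Esr2, the form of granulosa cells) and 15.4 ± 0.822 (Esr1). Fshr, the receptor for follicle-stimulating hormone, had 1.18, 2.004 and 1.54 FPKM in WT 1, WT 2 and WT 3. Lhcgr, the receptor for luteinizing hormone, had 1.33, 0.610 and 1.06, which puts its mean at place 14643 of 14648. Pgr, the progesterone receptor, was the 1 of 11 under 1 FPKM, with 0.320, 0.452 and 0.690. Of the hedgehog pathway, through which granulosa cells signal to theca cells, the ligands Dhh and Ihh had 6.74 ± 1.39 and 4.10 ± 1.71, and the responding genes Ptch1 and Gli1 34.6 ± 2.84 and 23.7 ± 2.73.

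The basement membrane list, whose proteins wrap follicles and vessels, had 12 of 12 genes at or above 1 FPKM and a median of 52.8. Nid1 led with 142 ± 13.1, then Col4a1 with 113 ± 5.05, Col4a2 with 103 ± 4.07 and Lamb1 with 101.0 ± 6.50. Its genes were highest in WT 2 in 9 of 12, where 33.7% of all 14648 genes were highest in WT 2. The proliferation list had 21 of 21 at or above 1 FPKM and a median of 29.5, with the replication clamp gene Pcna at 89.5 ± 2.07, the cyclin gene Ccnd2 at 68.4 ± 5.51 and Mki67 at 29.5 ± 7.07.

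Of 17 steroidogenic genes 15 were at or above 1 FPKM, 8 at or above 10 and 1 at or above 100, with a median of 7.92. Hsd3b1, which makes progestogens from pregnenolone, had 115, 181 and 121 FPKM in WT 1, WT 2 and WT 3. It lies on chromosome 3, GRCm39, 98749672 to 98767110, minus strand. Nr5a2 and Nr5a1, nuclear receptors that drive steroidogenic genes, had 50.1 ± 6.23 and 38.1 ± 3.55, and the lipoprotein receptor gene Scarb1 33.0 ± 2.32. Hsd17b1, which makes estradiol from estrone in granulosa cells, had 23.5 ± 3.52.

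The genes for the start of the pathway and for its androgen and estrogen steps were far lower. Star, which carries cholesterol into mitochondria, had 5.87, 5.21 and 4.48 FPKM in WT 1, WT 2 and WT 3. Cyp11a1, the side-chain cleavage enzyme, had 0.926, 0.421 and 0.587, and Cyp17a1, which makes androgens in theca cells, had 0.883, 0.448 and 0.559. Both stayed under 1 FPKM in every library. Cyp19a1, the aromatase that makes estrogen in granulosa cells, had 1.76, 3.48 and 1.24, and WT 2 was highest. The theca hormone gene Insl3 had 0.283 ± 0.0887. Of the 9 theca list genes 6 were at or above 1 FPKM, led by Aldh1a1, a retinoic acid enzyme that other ovarian cells also express, with 60.7 ± 14.98. Near-identical Hsd3b family members could share reads with Hsd3b1, so its value is uncertain to that extent.

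Stromal genes had the highest median of the marker lists, with 20 of 20 at or above 10 FPKM and 9 at or above 100. They took 1.27% of the summed FPKM, less than the larger oocyte list. Col1a2, Col3a1 and Col1a1 encode the chains of fibrillar collagens I and III. Col1a2 (chromosome 6, GRCm39, 4505618 to 4541543, plus strand) had 562, 828 and 823 FPKM in WT 1, WT 2 and WT 3, Col3a1 had 491, 658 and 702, and Col1a1 had 451, 711 and 676. Dcn, a collagen-binding proteoglycan, had 291, 274 and 422 FPKM, Col6a1 258, 304 and 313 and the microfibril gene Mfap4 244, 252 and 297. Tcf21, a transcription factor of stromal progenitors, had 99.1 ± 11.7, and Pdgfra, a receptor that marks fibroblasts, 44.9 ± 2.47.

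WT 1 was the lowest library for 19 of the 20 stromal genes, while 33.2% of all 14648 genes were lowest in WT 1. The stromal list median without WT 1 was 112 FPKM. Ogn, a small matrix proteoglycan, went furthest with 54.0, 80.6 and 155 FPKM in WT 1, WT 2 and WT 3, and Dpt, another matrix protein, had 23.6, 25.8 and 50.8. These 2 were the stromal genes that differed over 2-fold between libraries, beside 8.47% of all 14648 genes and 3.58% of the coding ones.

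Endothelial genes were the most even of the 4 main lists by their median CV. Of 16 genes all were at or above 1 FPKM, 10 at or above 10 and none at 100, with a median CV of 0.0775. None differed over 2-fold between libraries, beside 8.47% of all 14648 genes and 3.58% of the coding ones, a share that is few in 16 genes. Eng, a co-receptor of TGF-beta (chromosome 2, GRCm39, 32536607 to 32572681, plus strand), had 34.9, 39.8 and 39.7 FPKM in WT 1, WT 2 and WT 3. Cldn5, a tight junction protein, had 34.9, 29.3 and 30.6, and Cdh5, the endothelial cadherin, 29.8, 31.5 and 29.96. Egfl7 had 26.2 ± 0.921, Pecam1 24.2 ± 0.731 and Esam 22.6 ± 1.84. Kdr, the main receptor for VEGF, had 19.6 ± 1.03, and the lowest were Flt1 with 2.62 ± 0.258 and Vwf with 2.21 ± 0.316. Among lymphatic genes, Prox1, which sets lymphatic identity, had 2.29 ± 0.418 and Flt4 4.49 ± 0.8001. Pdpn, at 60.8 ± 18.3, is also made by other ovarian cells.

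Mural genes were listed at unequal levels. Acta2, smooth muscle actin, had 69.7, 71.6 and 113 FPKM in WT 1, WT 2 and WT 3, Pdgfrb 22.8, 25.3 and 21.4, Rgs5 18.6, 16.7 and 21.3 and Myh11 15.6, 15.6 and 19.9. Tagln, which usually accompanies Acta2 in smooth muscle, was listed at 0.659, 0.659 and 0.717 on 18, 19 and 21 reads. It was the 1 gene of these 12 under 1 FPKM, and its value is uncertain to the extent that reads were shared with other genes. WT 3 was highest for 8 of the 12, as for 35.2% of all 14648 genes. Cnn1 (10.8, 5.90 and 16.0) and Des (7.79, 4.54 and 13.6), both smooth muscle genes, differed over 2-fold. So did 8.47% of all 14648 genes and 3.58% of the coding ones.

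Surface epithelium was marked by Upk3b (47.9, 39.0 and 48.2 FPKM in WT 1, WT 2 and WT 3), Aldh1a2 (44.6 ± 5.31), Krt19 (33.8 ± 2.40) and Krt8 (24.3 ± 4.02). Upk1b, a uroplakin, had 20.3, 3.25 and 1.61. It was highest in WT 1 by 12.6-fold over WT 3. Of the list's 11 genes, 8 were highest in WT 1, where 31.2% of all 14648 genes were. The means of all 14 macrophage and leukocyte genes were under 10 FPKM, with Lyz2 at 8.84, 4.53 and 11.7, the complement gene C1qb at 7.94, 6.38 and 9.22 and Csf1r at 5.67 ± 0.958, and 9 of 14 were lowest in WT 2, as were 33.2% of all 14648 genes. The pan-leukocyte gene Ptprc had 0.510 ± 0.0716 and Cd52 0.808, 0 and 0.430. Hemoglobin genes were led by Hba-a1 with 88.9, 100.3 and 183 and Hbb-bs with 84.1, 65.1 and 127, highest in WT 3. Hba-a2, a near-identical neighbour of Hba-a1, had 2.48, 2.25 and 2.02, and the pair may share reads.

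Sex-linked genes were read as a check of the tissue. Xist, the RNA that silences an X chromosome in female cells, had 98.3, 141 and 109 FPKM in WT 1, WT 2 and WT 3. Of 4 Y-linked genes, Ddx3y and Uty were listed at 0 in all 3 libraries, and Kdm5d and Eif2s3y were at 0 in WT 2 and WT 3 and at 0.00990 and 0.0117 FPKM in WT 1. Srsf1, the gene knocked out in the ovaries not described here, had 39.9, 49.6 and 46.3 FPKM.

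Transcription factors of any cell type were taken from the deposited table's own family column, which names 1490 genes. The column goes by protein family, and not every gene in it need be a transcription factor. Of these 984 (66.04%) were at or above 1 FPKM, with a median of 6.40 FPKM among those, 364 at or above 10 and 5 at or above 100. Foxl2 was the highest of all, at 189 ± 44.9. Ybx3, a cold shock protein that binds DNA and RNA, followed with 165 ± 2.43, then Tsc22d1 with 139 ± 18.8 and Wt1 with 134 ± 8.85. Zfp36l1, in the column by its zf-CCCH family, had 123 ± 13.4. Wt1 is a zinc finger factor of gonadal somatic cells. Of the GATA factors of granulosa cells, Gata4 had 95.04 ± 3.67 and Gata6 44.0 ± 0.969. These factors were chosen after their values were seen.

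By biotype the 14648 genes were 12618 protein-coding genes (86.1%), 623 long non-coding RNA genes, 533 pseudogenes, 531 unannotated loci, 161 snoRNA genes, 84 miRNA genes, 67 other RNA genes, 22 tRNA genes, 7 immunoglobulin or T cell receptor segments and 2 rRNA genes. Coding genes held 94.5%, 94.4% and 94.5% of the summed FPKM in WT 1, WT 2 and WT 3, and 97.4% of the reads in each. Such shares also depend on how RNA was selected for the libraries, which is not described here. Of the coding genes listed, 56.9% were at or above 1 FPKM, against 4.68% of long non-coding RNA genes and 8.69% of pseudogenes. Among the unannotated loci, which the table gives without a symbol, the share was 60.9%. The median level was 10.2 FPKM for the coding genes and 1.91 for the long non-coding RNA genes.

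**Figure D3:**
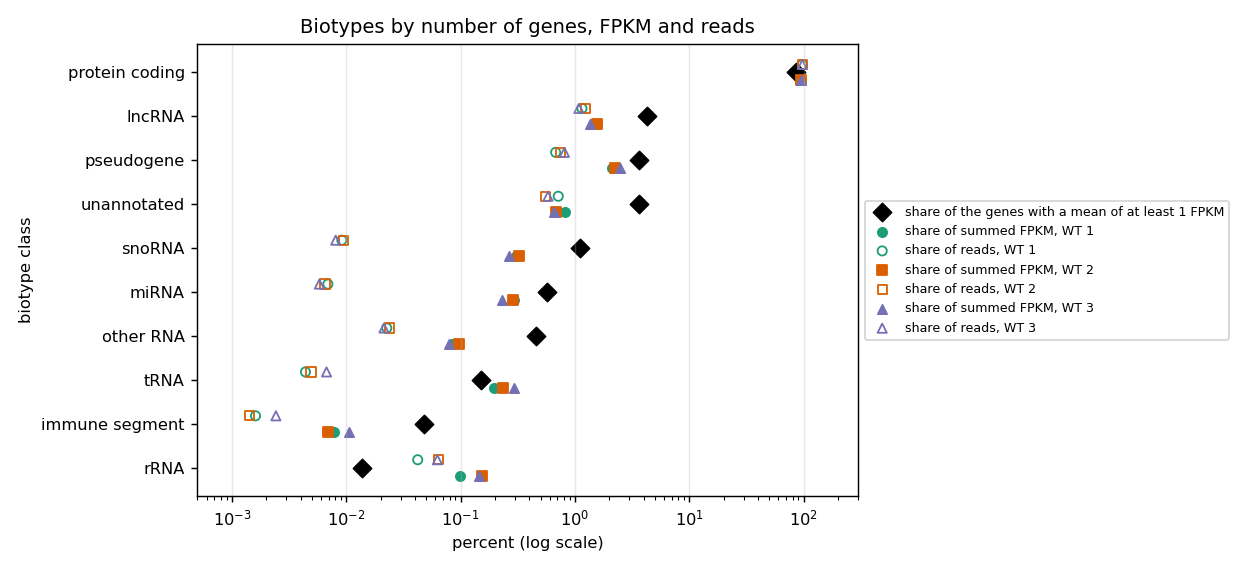
Percent (x axis, log scale) of genes at or above 1 FPKM (diamonds), of summed FPKM (filled symbols) and of reads (open symbols) by biotype class (y axis), 1 symbol shape per WT library. Coding genes hold over 94% of the FPKM, and short RNA classes hold a far larger share of genes and FPKM than of reads.

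Long non-coding RNA genes were led by AY036118 with 667, 478 and 467 FPKM in WT 1, WT 2 and WT 3. It lies on chromosome 17 (GRCm39, 40158556 to 40209276, minus strand) beside LOC118568312 (40156247 to 40158063, plus strand), which the table lists as protein coding, with 634, 439 and 435. The neighbours moved together over the libraries, and whether their reads stem from another RNA was not tested. AU020206 had 253 ± 37.2, Rps18-ps4 147 ± 70.4, Xist 116 ± 22.3 and Gas5, a host of snoRNAs, 100.4 ± 11.1. Rps18-ps4 bears the name of a ribosomal pseudogene although the table lists it as long non-coding.

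Pseudogenes and short RNA genes need the reads behind them. The 5 highest pseudogenes were copies of ribosomal protein genes: Rps12-ps3 (299 ± 70.5), Gm15772 (284 ± 238), Rpl17-ps10 (259.9 ± 49.2), Rps10-ps2 (245 ± 37.0) and Rpl17-ps3 (229.9 ± 58.5). Gm15772, a copy of Rpl26, had 35.9, 305 and 511 FPKM in WT 1, WT 2 and WT 3. Reads of such copies and of their parent genes cannot be told apart with certainty. Of the 14648 genes, 315 rested on under 30 reads over the 3 libraries, and 280 of those were shorter than 300 bases. The 84 miRNA genes had a median of 8 reads over the 3 libraries, so that most of their FPKM values rest on few reads. The miRNA gene at the top, Mir7686, had 328, 231 and 152 FPKM on 322, 239 and 160 reads. It is 57 bases long, and FPKM divides reads by length. Mir682, whose table entry also matches a ribosomal protein, had 124 ± 6.81, Mir3064 90.3 ± 25.6, Mir7652 42.5 ± 6.71 and Mir186 39.4 ± 11.6. No mature miRNA is measured by these values.

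Among the remaining classes, mt-Rnr2 and mt-Rnr1 were the genes listed as rRNA that reached 1 FPKM, with 244 ± 66.4 and 183 ± 36.7. The 5S rRNA genes n-R5s33, n-R5s13 and n-R5s194 were each seen in 1 library only and stayed under 1. The highest tRNA genes were all mitochondrial, TrnP (281 ± 45.4), TrnC (132 ± 40.5), TrnN (116 ± 37.2), TrnE (60.1 ± 32.7) and TrnL1 (34.7 ± 21.4). The highest snoRNA genes were AF357359 (98.6 ± 15.9), Snord96a (31.8 ± 4.85), LOC115487677 (26.6 ± 9.04), Snora65 (24.8 ± 5.30) and Snora28 (20.04 ± 2.73). Snord96a lies within Rack1, LOC115487677 within Gas5 and Snora65 within Rpl12, and reads there cannot be told apart from those of the host gene. Of the 161 snoRNA genes at or above 1 FPKM, 114 rested on under 30 reads over the 3 libraries. Of other RNA genes, Gm27343 led with 41.5 ± 5.02 and LOC115488583 followed with 17.0 ± 3.26. Below them stood 2810039B14Rik, Snord73b and Rnu7. The immune segments were low, with the immunoglobulin gene Ighm at 4.60 ± 1.55 and the T cell receptor gene Trac at 4.12 ± 1.59, above Trav9-2, Igkc and Ighj4.

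The 3 libraries were alike over most genes. Pearson correlations of log2(FPKM + 1) across the 14648 genes were 0.971, 0.972 and 0.971, and Spearman correlations 0.972, 0.972 and 0.971 (WT 1 with WT 2, WT 1 with WT 3, WT 2 with WT 3). These are across genes, which are not independent replicates. The median CV was 0.108, where the counting error of the reads alone would give 0.0414. It was 0.197 for genes from 1 to under 3 FPKM, 0.0851 from 10 to under 30, and 0.114 at 100 or more, while the counting error fell from 0.105 to 0.0131. At 100 FPKM or more the spread was thus higher again than at middle levels, although these genes had the most reads. The libraries differed over 2-fold between the highest and the lowest for 1241 genes, 452 of the 12618 coding genes (3.58%) and 789 of the 2030 others (38.9%).

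**Figure D4:**
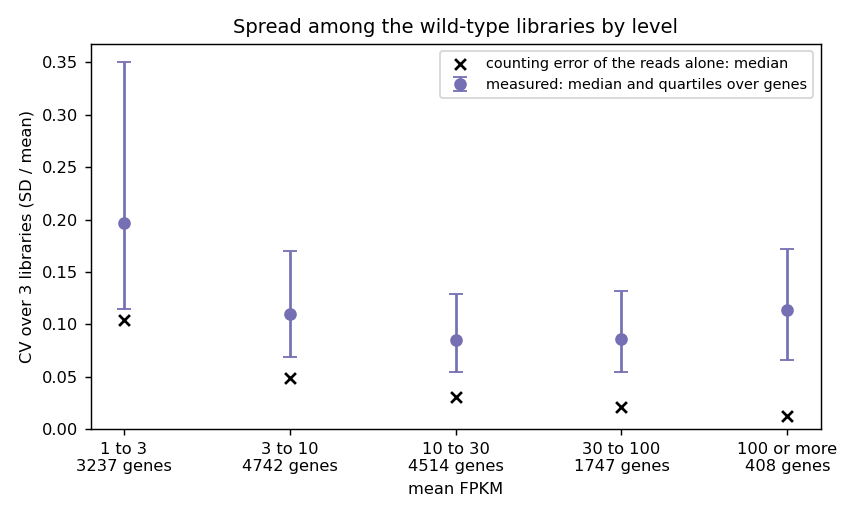
Coefficient of variation over 3 WT libraries (y axis, SD over mean) for 5 classes of mean FPKM (x axis, with the number of genes). Circles with bars are the median and quartiles over genes and crosses the counting error alone. The measured median falls from 0.197 to 0.0851 and stands at 0.114 in the highest class.

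Ribosomal protein genes varied more than most. The median CV of the 85 was 0.183, beside 0.108 for all 14648 genes and 0.114 for genes at 100 FPKM or more. It lay just above the upper quartiles of those sets, 0.179 and 0.172. Rpl35a had the highest CV of all genes of at least 10 FPKM with a plain symbol, 1.45, at 149, 6.90 and 11.5 FPKM in WT 1, WT 2 and WT 3. Rps18 had 32.2, 317 and 472, and Rps27 had 81.9, 87.1 and 304. For some of these genes a listed copy held many of the reads. The copy Rps18-ps4 took 4120, 1644 and 2645 reads, all that the 8 listed copies of Rps18 had, beside 304, 3161 and 4788 in Rps18 itself. Summed with its copies, Rps18 had a CV of 0.266 in place of 0.815, and Rps27 had 0.270 in place of 0.805. For Rpl35a the CV fell to 0.794, with 93.9%, 18.2% and 21.9% of the reads in the gene itself. For Rps27a the gene held 93.4% to 99.0% of the reads, and the CV was 0.688 alone and 0.672 with copies. Copies were found by name or description after the values were seen.

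Gapdh, often used as a reference gene, is listed at 1.37, 1.17 and 1.25 FPKM, on 41, 37 and 40 reads, beside 260 listed copies that took 730, 2080 and 726 reads. Here summing with the copies raised the CV, from 0.0796 to 0.627. Among the copies, Gm13394 alone had 0.823, 66.6 and 0.903 FPKM. Actb, another reference gene, had 485 ± 33.3, Ppia 542 ± 114, Hprt 38.1 ± 6.49 and Tbp 16.1 ± 0.975. All 10 reference genes were at or above 1 FPKM, with a median CV of 0.0733.

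The other genes with the highest CV at 10 FPKM or more were of several kinds. Oog3, an oocyte gene, had 7.11, 22.4 and 3.04 FPKM, the peptide hormone gene Rln3 24.0, 2.66 and 8.89, and the stress-induced gene Phlda3 24.4, 6.11 and 8.01. Mir143 had 0.922, 22.7 and 12.03 on 1, 26 and 14 reads. The digestive enzyme genes Try4 and Clps had 35.8, 10.9 and 8.06 and 23.5, 6.70 and 6.30. Cwc22, a spliceosome gene of chromosome 2 (GRCm39, 77706312 to 77776705), had 99.5, 155 and 5.39. Its low library lay 28.7-fold under the highest, on 14592, 24014 and 849 reads. A pair of listed Cwc22 pseudogenes on the same chromosome, looked up after the values were seen, went the same way, Gm13694 with 2.74, 2.45 and 0 and Gm13696 with 0.380, 0.702 and 0. Cwc22 sits in a segment that is known to vary in copy number between mouse strains, and the part of copy number in these values was not tested.

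At the other end, 10 genes of 10 FPKM or more had the lowest CV: Arhgef5, Chek1, Hspd1, Fzd7, Nat9, Ttc9c, Tubb4b, Pgap6, Limd1 and Wbp2. Chek1, a checkpoint kinase gene, had 15.9, 15.9 and 15.9 FPKM, and Hspd1, a mitochondrial chaperone gene, had 108, 108 and 107. These 10 come from 6669 genes at that level, with 3 values each.

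Some groups of genes moved together in 1 library. Immediate early genes, which cells switch on within minutes of a stimulus, were lowest in WT 3 in 8 of 8, beside 33.6% of all 14648 genes, and 7 of them differed over 2-fold, beside 8.47%. Their median FPKM was 14.3, 11.3 and 2.86 in WT 1, WT 2 and WT 3. Fos had 9.69, 6.96 and 0.898, Junb 17.1, 12.9 and 3.32 and Nr4a1 11.4, 9.80 and 2.40, and the highest library exceeded WT 3 by 10.8-fold, 5.16-fold and 4.76-fold. Egr1 had 33.7, 70.9 and 18.7, and Fosb, the 1 of the 8 under 1 FPKM, 0.461, 0.845 and 0.229.

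Genes of pancreatic digestive enzymes, a list drawn up after the values were seen, were highest in WT 1 in 16 of 16, beside 31.2% of all 14648 genes, and 14 of them differed over 2-fold, beside 8.47% of all and 3.58% of coding genes. Their median was 23.3, 7.54 and 6.84 FPKM in WT 1, WT 2 and WT 3. Ctrb1, a chymotrypsin gene, had 64.0, 33.0 and 26.9, Cela2a, an elastase gene, 60.02, 21.04 and 16.2, Cpa1, a carboxypeptidase gene, 46.1, 27.3 and 21.6, and Prss2, a trypsin gene, 41.5, 13.6 and 11.2. Of the 16, 15 had a mean of at least 1 FPKM, and Amy2a5, an amylase gene, was the 1 under it. None of the 4 named was absent from a library, and the lowest of their values was 11.2 FPKM. Alb, the liver's serum albumin gene, also chosen after its values were seen, had 7.64, 0.961 and 0.236. The pancreatic list summed to 0.0791% of FPKM. Its part in other values of WT 1, including the lower stromal level there, was not tested.

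**Figure D5:**
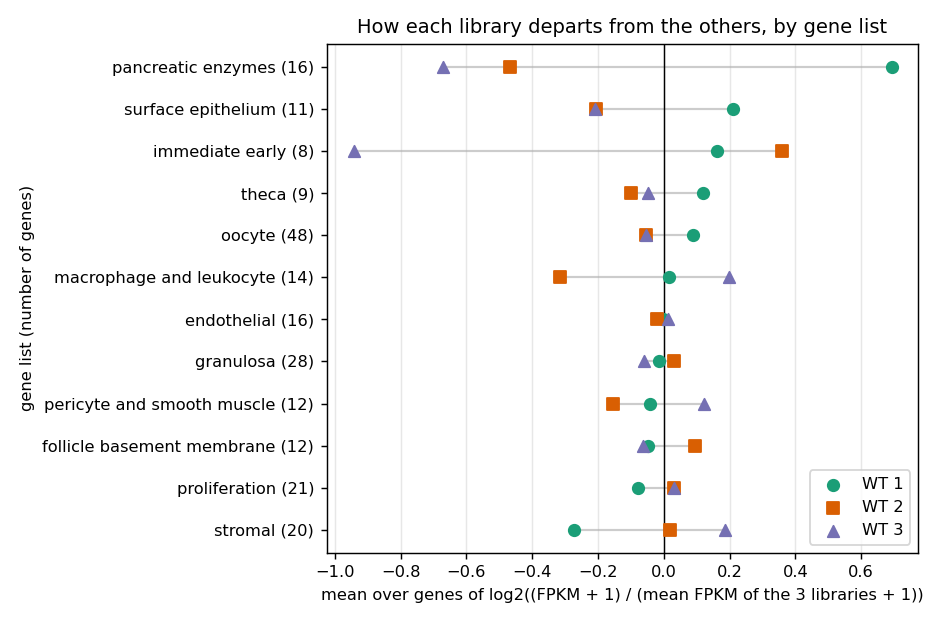
Mean over the genes of a list of log2((FPKM + 1) / (mean FPKM + 1)) (x axis) in each WT library, for 12 lists (y axis, with the number of genes). WT 1 stands apart for pancreatic enzymes (0.69) and stromal genes (-0.27) and WT 3 for immediate early genes (-0.94), while endothelial genes run from -0.02 to 0.01 and granulosa genes from -0.06 to 0.03.

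Gene length went with the difference between libraries as well. For coding genes of at least 10 FPKM and under 1 kb, the median ratio of a library to the mean was 1.06, 0.846 and 1.10 in WT 1, WT 2 and WT 3 (426 genes). For those of 8 kb or more it was 0.978, 1.07 and 0.949 (561 genes). WT 2 thus ran low for short genes and high for long ones, and WT 3 the reverse, and ribosomal protein genes, which were lowest in WT 2 as a group, have a median length of 860.0 bases. What set this trend was not tested.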

How the data were processed

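Whole ovaries of WT mice at 9 dpp were measured by RNA sequencing in 3 libraries. The authors deposited FPKM values per gene in 1 table for the whole series. The submitters' processing notes list the aligner HISAT2 (version 2.0.5) and, with no role, mm10 and GRCm39. The table's chromosome accessions are those of GRCm39. Not given in the sources used here are the counter, the annotation release and the strand setting, so that overlapping and antisense genes cannot be told apart. How reads shared between genes were counted is thus not known. Low listed values, such as those of Tagln, Rpl28 and Gapdh, are uncertain to that extent. FPKM times gene length gave whole reads for 100% of values (within 0.01 of a whole number), with denominators proportional to median-of-ratios size factors, and no further scaling was applied.

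Means, SDs (written as mean ± SD, n = 3) and CVs were computed with pandas 2.3.3 in Python 3.11.15, and the recovery of reads and of CVs was tested on simulated data. The members and lists were chosen with earlier results of these data known. Named are the 25 most abundant genes, the 5 highest genes of each non-coding class, up to 6 leading members of each list and each member under 1 FPKM, the 10 genes with the highest and the 10 with the lowest CV at 10 FPKM or more, and 3 genes on each side of the threshold. Some genes that this rule names are not reported here. Others, among them the middle members of the lists, were chosen after their values were seen. Alternatives were other thresholds, reads in place of FPKM, the geometric mean of a list, values rescaled to a common total and leaving out each library.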

Additional observations from a re-analysis of the deposited data

How the results depend on the processing

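The order stromal, oocyte, granulosa, endothelial held for the list medians in each of 6 settings, the main one included. These settings share libraries, so they do not resolve the order of oocyte and granulosa genes. In WT 2 alone that order was reversed, with a median of 36.91 FPKM for oocyte and 36.96 for granulosa genes. Of 63 alternative values, 33 moved by less than the spread between libraries, or by under 1.5 times for a count, and 30 moved by more. The gene count was 22381 at a threshold of 0.1 FPKM and 9609 at 5 FPKM. The 100 most abundant genes took 12.9% when ranked and summed by reads and 18.8% without mitochondrially encoded genes. Coding genes were 71.0% at 0.1 FPKM, 94.5% at 5 FPKM and 89.5% with at least 1 FPKM in each library. Rescaling each library to a common total gave list medians of 303 for stromal, 120.5 for oocyte, 111 for granulosa, 46.4 for endothelial and 24.7 for steroidogenic genes, in a different unit from the FPKM above. As geometric means they were 47.1 for oocyte, 30.7 for granulosa, 12.01 for endothelial and 10.3 for steroidogenic genes. With members of at least 1 FPKM only, granulosa had 37.4 and steroidogenic genes 20.3. Leaving out 1 library gave 33.6 to 37.0 for granulosa, a median CV of 0.0856 to 0.0934, and 665 to 749 genes over 2-fold (701 without WT 1, 665 without WT 2, 749 without WT 3), from 2 libraries in place of 3. The median CV was 0.0870 at 10 FPKM, 0.116 after rescaling and 0.134 as the SD of log2(FPKM + 1). Genes over 2-fold numbered 121 at 10 FPKM and 677 on FPKM + 1. For other values that moved, the cause was not tested. No paired analysis was possible because 1 group was described and nothing was tested. Depth limits genes of few reads, and counting error was under the measured spread in each class of level.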

Other observations

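Coding genes were also counted by chromosome, a choice made after the values were seen. Of the autosomal coding genes 58.2% were at or above 1 FPKM, with a median of 10.3 FPKM among those. On the X chromosome the share was 45.7% and the median 8.15. Single autosomes ran from 48.0% (chromosome 7) to 65.7% (chromosome 12) and from 8.55 to 11.5 FPKM in the median. The X chromosome thus lay under every autosome on both measures. On the Y chromosome 0 of 265 listed coding genes reached 1 FPKM.

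Akr1cl, an aldo-keto reductase gene on none of the lists, held place 61 among all genes with 439, 472 and 519.6 FPKM in WT 1, WT 2 and WT 3. Its 3 libraries lay within 1.18-fold of each other.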
